A study of Caenorhabditis elegans with 6 samples.

Results

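Transcripts of the mitochondrial genome of the nematode Caenorhabditis elegans were examined in RNA-seq libraries from whole embryos. They are the 36 rows of the gene count table whose identifier starts with MTCE., of 46659 rows in all. The annotation gives 12 of them as protein-coding genes, 2 as ribosomal RNA (rRNA) genes and 22 as transfer RNA (tRNA) genes, and places all 36 on the plus strand. The 6 libraries came from dot-1.1(knu339); ced-3(n1286) double mutants (3 libraries) and from the ced-3(n1286) single mutants used as their controls (3 libraries). The ced-3 allele was thus carried by both genotypes. dot-1.1 encodes the worm counterpart of DOT1L, a histone H3 methyltransferase, and ced-3 encodes the caspase that executes programmed cell death in the worm. Animals were grown at 20 °C on a bacterial lawn, and eggs were freed from egg-laying adults with alkaline hypochlorite. A library therefore pools embryos of every stage that the adults held, and the age of the embryos was not given beyond that.

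The small circular genome of the mitochondrion encodes core subunits of the respiratory chain together with the rRNAs and tRNAs that translate them inside the organelle. ND1 to ND6 and ND4L are subunits of complex I, which takes electrons from NADH. CYTB is the cytochrome b of complex III, COX1 to COX3 form the catalytic core of complex IV, and ATP6 is a membrane subunit of the ATP synthase. In animals the genome is copied by its own polymerase and is transcribed into long RNAs that span several genes, from which the tRNAs are cut out and so free the mRNAs and rRNAs between them. Everything else that this system needs, including its RNA polymerase, packaging protein and ribosomal proteins, is made from nuclear genes. Mitochondria, and the RNA they hold, reach the embryo through the egg.

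The libraries held 66316445 to 75279479 counts in double mutants and 68832040 to 77957224 counts in single mutants. Because RNA was taken from whole embryos, fewer mitochondria and less RNA per mitochondrion cannot be told apart, nor can fewer cells of a type rich in mitochondria. Ribosomal RNA was depleted during library preparation, so the rRNA rows count what that step left. The dot-1.1 row itself had 60.0, 29.4 and 37.4 CPM in double mutant replicates 1 to 3, against 65.6, 34.8 and 45.8 CPM in single mutant replicates 1 to 3. In each replicate number the double mutant had the lower value, and the genotypes overlapped. CPM is the count of a gene scaled to 1000000 counts in the library. What the knu339 allele does to the transcript was not given in the labels.

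Mitochondrial transcripts took a smaller part of every double mutant library than of any single mutant library. The 36 rows summed to 5.55%, 6.92% and 4.31% of the library total in double mutant replicates 1 to 3, against 9.95%, 12.05% and 7.63% in single mutant replicates 1 to 3. The groups did not overlap, although the highest double mutant and the lowest single mutant lay close together. The means were 5.59 ± 1.31% in double mutants and 9.88 ± 2.21% in single mutants (SD, n = 3 each), a difference of -0.82 on the log2 scale. Libraries that carry the same replicate number stood in nearly the same proportion, with double to single mutant ratios of 0.558, 0.574 and 0.565. Part of the spread within each genotype was therefore shared by number, with replicate 2 highest and replicate 3 lowest in both genotypes. No test was made of this sum.

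**Figure D1:**
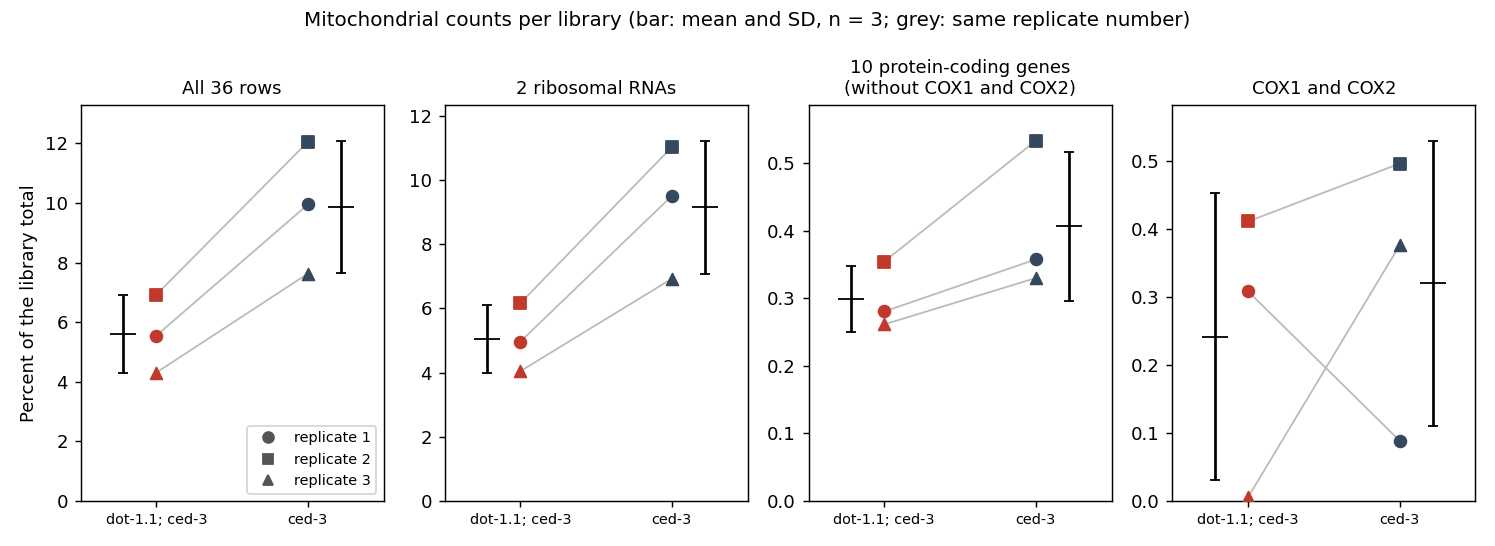
Counts of groups of mitochondrial genes as a percent of the library total (y axis, own scale in each panel), with double mutants on the left and single mutants on the right. Symbols mark the replicate number, grey lines join libraries of the same number, and bars give the mean and SD (n = 3). All rows and rRNAs do not overlap between the genotypes, the 10 mRNAs are lower in double mutants in every number, and COX1 with COX2 run in opposite directions in numbers 1 and 3.

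Nearly all of these counts were rRNA. The rRNA genes are MTCE.7 (MtDNA, 898 to 1593, WBcel235) and MTCE.33 (10403 to 11354), and they made up 89.4%, 88.9% and 93.8% of the mitochondrial counts in double mutants and 95.5%, 91.5% and 90.7% in single mutants. In animal mitochondria the shorter of the rRNAs belongs to the small ribosomal subunit. The annotation used here does not say which subunit either row belongs to. MTCE.7, the shorter, had the highest count of any gene in all 6 libraries.

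Both rRNAs were lower in the double mutants. MTCE.7 had 36135, 42222 and 28325 CPM in double mutants, against 65917, 72390 and 47795 CPM in single mutants. MTCE.33 had 13469, 19357 and 12072 CPM in double mutants, against 29122, 37846 and 21432 CPM in single mutants. The genotypes did not overlap for either gene. The double mutant mean was 42.7% lower for MTCE.7 and 49.2% lower for MTCE.33. The ratio of MTCE.7 to MTCE.33 within a library was 2.68, 2.18 and 2.35 in double mutants and 2.26, 1.91 and 2.23 in single mutants, with a two-sided exact permutation p of 0.3, where 3 against 3 libraries cannot go below 0.1. It was 1 of 2 such ratios tested, and its Benjamini-Hochberg value was also 0.3.

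Whether these differences passed a test depended on how the spread between libraries was modelled. With genotype as the sole term, edgeR's quasi-likelihood test called 0 of the 17 mitochondrial genes that passed the filter on low counts, and 8 of the 17 had an unadjusted p under 0.05, all of them lower. Of all 17365 genes tested, 782 were lower and 1315 higher at that unadjusted threshold, and after adjustment this fit called 0.0806%, all of them higher. With the replicate number as a block, the same test called 5 of the 17, all lower: MTCE.7, MTCE.33, ND5, ND4 and ND6. Across all genes the blocked fit called 1.45% lower and 2.57% higher. DESeq2 without the block called 3, MTCE.33, MTCE.7 and ND5, against 0.449% of all genes called lower, and with the block 9, against 6.52%. The other 19 members, all tRNA genes, did not pass the filter on low counts used with edgeR. DESeq2, which sets its own filter, gave an adjusted p to 23 members without the block and to 13 with it.

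The blocked calls rest on few libraries. Left out in turn, pair 1 took the blocked edgeR count to 0, pair 2 to 7 and pair 3 to 3. MTCE.7 fell by 0.82 ± 0.081 (log2 fold change ± SE) with an edgeR adjusted p of 0.0044 in the blocked fit, and 0.224 without the block. MTCE.33 fell by 0.99 ± 0.088 with an edgeR adjusted p of 0.0037 in the blocked fit, and 0.213 without it. Over the 10 alternatives to the blocked fit the adjusted p of MTCE.7 ran between 1.12e-15 and 0.939 and that of MTCE.33 between 3.56e-21 and 0.939, and each passed 0.05 in 6 and 7 of the 10. Both upper ends came from scaling to the 12 mitochondrial mRNAs, a sum that includes the uneven COX1 and COX2 described below. The log2 fold change of both stayed below 0 in every alternative.

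**Figure D2:**
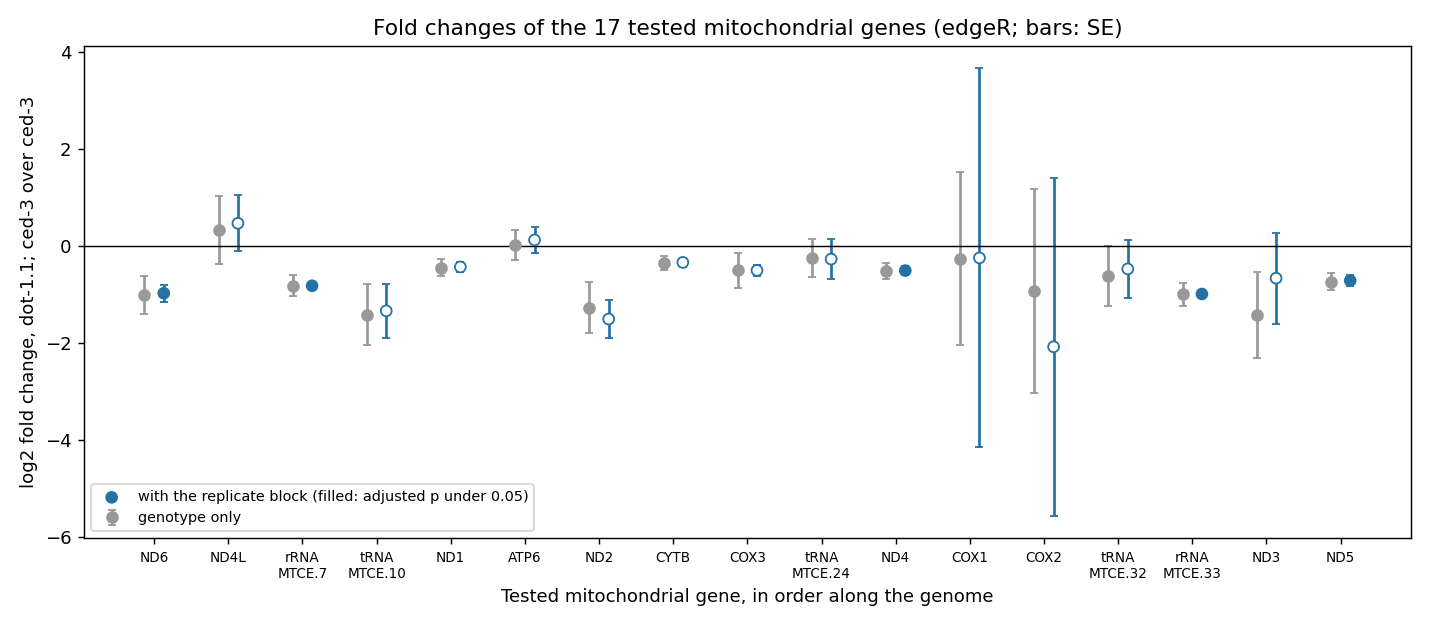
Log2 fold change of double over single mutants (y axis) for the 17 tested mitochondrial genes in their order along the genome (x axis), from edgeR without the replicate block (grey) and with it (blue, filled where the adjusted p was under 0.05). Bars are standard errors derived from the test statistic. 15 of the 17 lie below 0 in both fits when scaled on all genes, and COX1 and COX2 have by far the widest errors.

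Among the complex I mRNAs, ND5 and ND4 were abundant and lower in every double mutant library than in any single mutant library. ND5 (11691 to 13272), a membrane subunit, had 357, 470 and 456 CPM in double mutants, against 606, 900 and 591 CPM in single mutants. It fell by 0.71 ± 0.12 with an edgeR adjusted p of 0.0233 in the blocked fit, and 0.213 without the block. ND4 (6506 to 7808), another membrane subunit, had 207, 303 and 246 CPM in double mutants, against 325, 421 and 311 CPM in single mutants. The gap between the highest double mutant and the lowest single mutant was narrow for ND4. It fell by 0.51 ± 0.087 with an edgeR adjusted p of 0.0267 in the blocked fit, and 0.302 without the block, where scaling to all 12 mitochondrial mRNAs turned its fold change to 0.081. That sum includes ND4 itself, and also COX1 and COX2, which are described below. COX1 with COX2 made up 0.523, 0.537 and 0.0214 of it in double mutants, against 0.198, 0.481 and 0.532 in single mutants.

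ND1 (1763 to 2635), which in mammals lines the quinone site of complex I, was less clear. It had 399, 453 and 347 CPM in double mutants, against 483, 679 and 449 CPM in single mutants. The groups overlapped by 1 library on each side, and every number pair was lower in the double mutant. Its log2 fold change was -0.43 with an edgeR adjusted p of 0.0545 in the blocked fit. Scaled to the mitochondrial mRNAs without the block it came to 0.11 (12 mRNAs) and 0.016 (10 mRNAs). ND1 is itself part of both sums, so these values are relative to a set that includes it.

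The remaining complex I genes were counted far more sparsely, although they lie on the same strand. ND6 (113 to 549) had 4.86, 6.93 and 3.17 CPM in double mutants, against 7.79, 15.7 and 6.31 CPM in single mutants. It fell by 0.97 ± 0.17 with an edgeR adjusted p of 0.0288 in the blocked fit, and 0.373 without the block, and the groups overlapped. ND2 (3389 to 4269), of which 29 bases overlap the neighbouring tRNA genes, had 3.48, 5.57 and 1.02 CPM in double mutants, against 6.94, 10.6 and 6.57 CPM in single mutants, with no overlap. Its lowest value came from double mutant replicate 3, where 77 reads were counted. Its log2 fold change was -1.50 ± 0.38 with an edgeR adjusted p of 0.0855 in the blocked fit. Over the 10 alternatives to the blocked fit the adjusted p of ND5 ran between 4.88e-07 and 0.939, that of ND4 between 3.81e-05 and 0.997 and that of ND6 between 1.01e-04 and 0.939, and they passed 0.05 in 6, 5 and 6 of the 10. For each of these genes the upper end came from scaling to the 12 mitochondrial mRNAs, COX1 and COX2 included.

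ND4L and ND3 were barely detected. ND4L (549 to 783), a small membrane subunit, had 14, 27 and 9 counts in double mutants and 6, 28 and 7 counts in single mutants. ND3 (11356 to 11691), another small membrane subunit, had 15, 18 and 10 counts in double mutants and 9, 12 and 97 counts in single mutants. Single mutant replicate 3 alone stood above the other 5 libraries for ND3. The edgeR log2 fold changes without the block were 0.34 for ND4L, with an adjusted p of 0.858, and -1.42 for ND3, with an adjusted p of 0.534. That of ND3 came to 0.48 without single mutant replicate 3.

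CYTB and COX3 were lower in every number pair but not beyond the overlap of the groups. CYTB (4504 to 5621) had 926, 1097 and 967 CPM in double mutants, against 1167, 1513 and 1077 CPM in single mutants. Double mutant replicate 2 was just above single mutant replicate 3. Its log2 fold change was -0.34 with an edgeR adjusted p of 0.0836 in the blocked fit, and scaled to the mitochondrial mRNAs without the block it came to 0.24 (12 mRNAs) and 0.11 (10 mRNAs). CYTB is itself part of both sums. It held a mean of 33.6% of the counts of the 10 mRNAs in double mutants and 31.2% in single mutants. COX3 (5678 to 6449) had 794, 1074 and 478 CPM in double mutants, against 916, 1618 and 750 CPM in single mutants. Its log2 fold change was -0.50 with an edgeR adjusted p of 0.0561 in the blocked fit. Without the block it was also -0.50, and it was -0.11 without single mutant replicate 2, -0.22 without double mutant replicate 3, and -0.045 and -0.032 when scaled to the 12 and the 10 mitochondrial mRNAs. COX3, too, is part of both sums.

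ATP6 (2634 to 3235) stood apart from the other abundant mRNAs. It had 114, 137 and 117 CPM in double mutants, against 67.6, 181 and 110 CPM in single mutants. The double mutant libraries lay inside the range of the single mutants, whose replicate 1 was lowest of all. Its log2 fold change was 0.13 with an edgeR adjusted p of 0.819 in the blocked fit, and leaving out single mutant replicate 1 in the fit without the block gave -0.24.

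COX1 and COX2, the catalytic subunit and the copper-binding subunit of complex IV, varied between libraries more than any other tested member. COX1 (MTCE.26, 7827 to 9428) had 158676, 251634 and 4311 counts in double mutants, against 5720, 300823 and 227581 counts in single mutants. It was thus low in 1 library of each genotype, double mutant replicate 3 and single mutant replicate 1. COX2 (MTCE.31, 9649 to 10348) had 45361, 47555 and 1 counts in double mutants, against 55043, 85571 and 46903 counts in single mutants. A single read was counted for COX2 in double mutant replicate 3, while the single mutant replicate 1 library, low for COX1, was in the range of the others. The ratio of COX1 to COX2 counts was 3.50, 5.29 and 4311 in double mutants, the last of them resting on that single read, and 0.104, 3.52 and 4.85 in single mutants, with a two-sided exact permutation p of 0.3.

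The fitted changes of these genes carry those libraries. The edgeR log2 fold change of COX1 was -0.24 ± 3.91 in the blocked fit and -0.26 ± 1.79 without the block, and without double mutant replicate 3 it was 0.32. That of COX2 was -2.08 ± 3.49 in the blocked fit and -0.92 ± 2.10 without the block, and without double mutant replicate 3 it was -0.32 ± 0.23. In replicate number 2, the one number with both genes at their usual level in both genotypes, the double to single mutant CPM ratio was 0.895 for COX1 and 0.595 for COX2. By a threshold chosen after the values were seen, of the 5978 genes above 20 CPM in the other 5 libraries COX2 was the 1 gene over 20-fold lower in double mutant replicate 3. Of 6004 genes above 20 CPM in the remaining 4 libraries, COX1 was the 1 gene over 20-fold lower in both double mutant replicate 3 and single mutant replicate 1. The nearest mRNA or rRNA genes on either side, ND4 before COX1 and MTCE.33 after COX2, showed no such loss in those libraries.

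**Figure D3:**
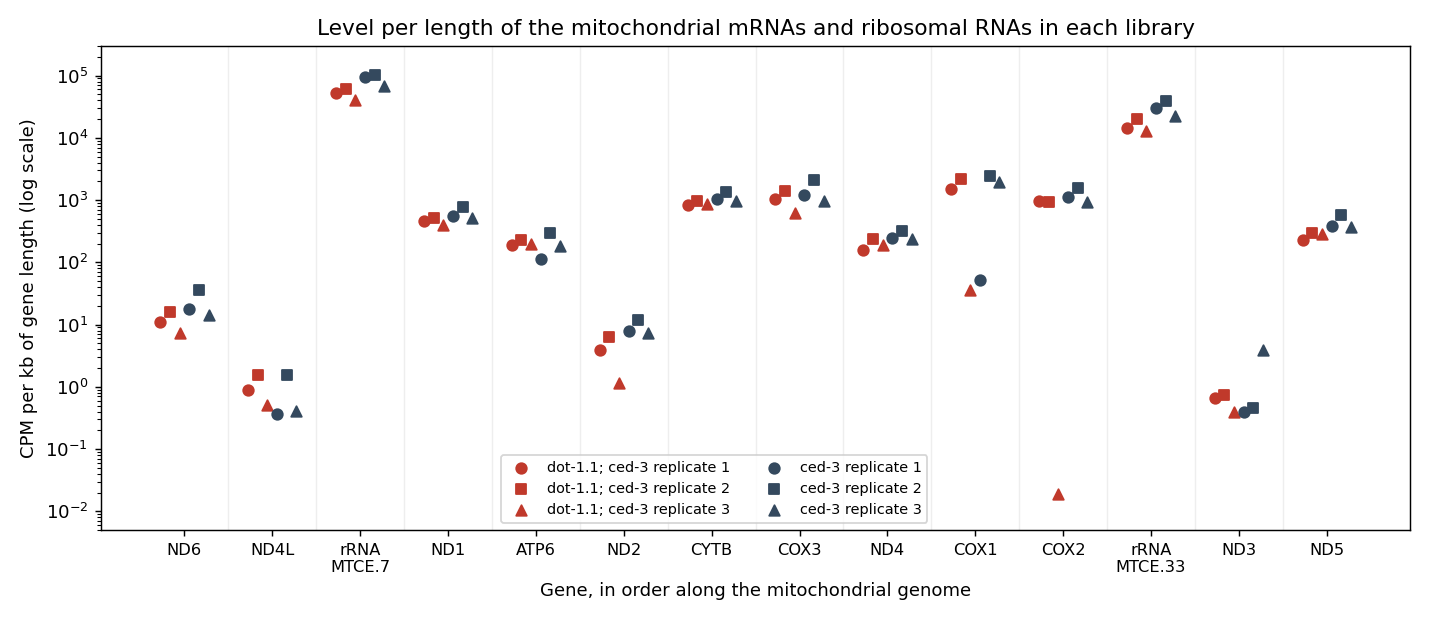
Level per gene length in CPM per kb (y axis, log scale) of the 12 mRNAs and 2 rRNAs in their order along the mitochondrial genome (x axis), in double mutant (red) and single mutant libraries (dark). Symbols mark the replicate number. COX1 is low in double mutant replicate 3 and single mutant replicate 1, COX2 has 1 read in double mutant replicate 3, and ND6, ND4L, ND2 and ND3 lie below the other genes in every unaffected library.

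Per length, the mRNAs fell into an abundant and a sparse set in both genotypes. The abundant set (COX1, COX3, CYTB, COX2, ND1, ND5, ATP6 and ND4) lay between 112 and 2409 CPM per kb when the low COX1 and COX2 values above are left aside. The sparse set (ND6, ND2, ND4L and ND3) lay between 0.37 and 35.99 CPM per kb. In double mutants COX3 averaged 1013 ± 386, CYTB 891 ± 79.6, ND1 458 ± 60.8, ND5 270 ± 39.0, ATP6 204 ± 20.6 and ND4 194 ± 37.1 CPM per kb. In single mutants COX3 averaged 1418 ± 597, CYTB 1120 ± 206, ND1 615 ± 142, ND5 442 ± 110, ND4 270 ± 45.9 and ATP6 199 ± 94.9 CPM per kb (SD, n = 3 each). The ranges of mean ± SD of COX3 and CYTB overlapped in both genotypes, and so did those of ATP6 and ND4. Within every single mutant library COX3 stood above CYTB and ND4 above ATP6. In double mutants the order within a library varied for both pairs of genes. The rRNAs stood above all mRNAs, MTCE.7 at 51093 ± 10009 CPM per kb in double mutants and 89129 ± 18318 CPM per kb in single mutants.

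The tRNA rows held almost nothing. Together the 22 genes had 75, 104 and 114 counts in double mutants and 97, 281 and 140 counts in single mutants. Mature tRNAs are far shorter than the selected fragments of 250 to 300 bp. The row with the highest mean count, MTCE.24 between COX3 and ND4, had 37, 25 and 34 counts in double mutants and 32, 47 and 38 counts in single mutants. MTCE.10 had 5, 12 and 17 counts in double mutants and 13, 57 and 23 in single mutants, MTCE.32 had 7, 12 and 14 against 6, 31 and 15, and MTCE.13 had 2, 8 and 7 against 9, 25 and 9. Of these 4, MTCE.24, MTCE.10 and MTCE.32 were tested and none was called in either edgeR fit, and single mutant replicate 2 was the highest library for each of the 4. No other tRNA row exceeded 23 counts in any library.

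Over all 36 rows, 8 had every double mutant library below every single mutant library and 0 the reverse. They were the 2 rRNAs, ND5, ND4, ND2 and the tRNA rows MTCE.13, MTCE.14 and MTCE.15. These tRNA rows were not tested and had at most 25 counts in any library. The share over all genes given next covers tested genes only. Of the 17 tested members 5 were lower without overlap, where 6.23% of all tested genes were. The median log2 fold change of the 17 was -0.62 without the block and -0.51 with it, and over all genes tested it was -0.016 and -0.019.

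The question of whether the rRNAs and mRNAs shifted by the same amount was approached through ratios within a library, which do not depend on its depth. Such a ratio does depend on how much rRNA the depletion step left in that library. Nuclear rRNA took a larger part of every double mutant library than of any single mutant library. The part of depletion in the ratio was not tested. Per count on the 10 mRNAs other than COX1 and COX2, the rRNAs had 17.7, 17.4 and 15.4 counts in double mutants, against 26.6, 20.7 and 21.0 counts in single mutants. The groups did not overlap, and the mean ratio was 16.8 ± 1.21 in double mutants and 22.7 ± 3.32 in single mutants (SD, n = 3 each). When COX1 and COX2 were included the ratio was 8.43, 8.05 and 15.1 in double mutants and 21.3, 10.7 and 9.81 in single mutants, and the groups overlapped. The libraries low in COX1 had the highest ratio of their genotype. COX1 and COX2 together came to 1.096, 1.158 and 0.0219 counts per count on the 10 mRNAs in double mutants and 0.247, 0.929 and 1.14 in single mutants.

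The rows used in the sum set its size and its overlap. The 10 mRNAs took 0.281%, 0.355% and 0.262% of the library total in double mutants, against 0.358%, 0.534% and 0.330% in single mutants. Double mutant replicate 2 was above single mutant replicate 3, and the ratios by number were 0.784, 0.664 and 0.792. The rRNAs alone took 4.96%, 6.16% and 4.04% in double mutants, against 9.50%, 11.02% and 6.92% in single mutants, with ratios by number of 0.522, 0.559 and 0.584. In each number the rRNAs therefore stood lower than the 10 mRNAs did. With COX1 and COX2 the 12 mRNAs took 0.588%, 0.765% and 0.267% in double mutants, against 0.446%, 1.03% and 0.706% in single mutants, and number 1 then went the other way.

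Relative to the 10 mRNAs, ATP6 and ND2 differed between the genotypes. Scaled on all genes, ATP6 had a log2 fold change of 0.13 with an edgeR adjusted p of 0.819 in the blocked fit. ATP6 made up 4.07%, 3.86% and 4.48% of their counts in double mutants, against 1.89%, 3.39% and 3.34% in single mutants. ND2 made up 0.124%, 0.157% and 0.039% in double mutants, against 0.194%, 0.199% and 0.199% in single mutants. The groups did not overlap for either gene, and ATP6 was the higher in double mutants. The most distant library was single mutant replicate 1 for ATP6 and double mutant replicate 3 for ND2, the libraries low in COX1. With library sizes set to the 10 mRNAs and the replicate block, edgeR called 3 members lower (ND2, ND6 and MTCE.33) and 1 higher (ATP6), against 0.369% of all genes lower and 36.9% higher. ATP6 had a log2 fold change of 0.57 ± 0.17 with an edgeR adjusted p of 0.0034 there, and ND2 fell by 1.06 ± 0.23 with an edgeR adjusted p of 7.88e-05. Without the block the same scaling called 0 members, with edgeR adjusted p values of 0.341 for ATP6, 0.145 for ND2, 0.368 for ND6 and 0.448 for MTCE.33. That scaling moved the median of all genes to 0.43, so the share of higher calls among all genes follows from it. The 0.57 of ATP6 lay near that median. Fits with a library left out were not made on that scale. Setting library sizes to all 12 mRNAs, a sum that holds the low COX1 and COX2 values, left 0 members called.

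**Figure D4:**
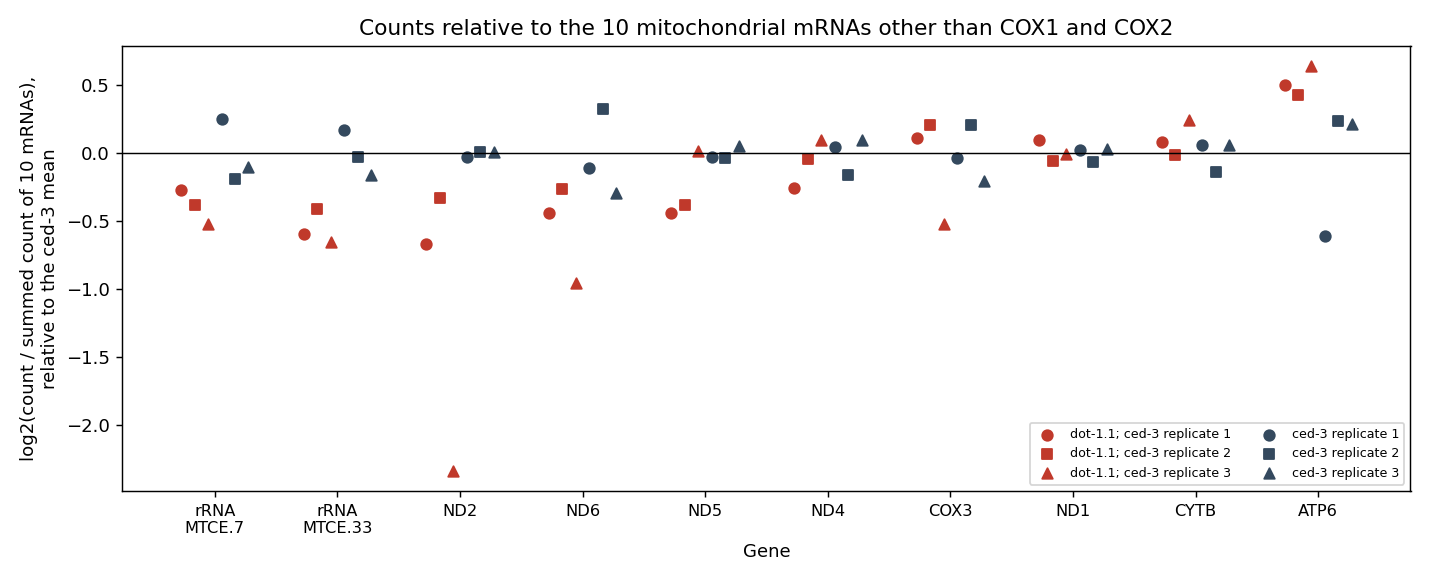
Count of a gene over the summed count of the 10 mRNAs other than COX1 and COX2, on a log2 scale relative to the single mutant mean (y axis), for the rRNAs and the better counted of these mRNAs (x axis), in double mutant (red) and single mutant libraries (dark). Symbols mark the replicate number. The rRNAs and ND2 are lower in every double mutant library than in any single mutant library, ATP6 is higher, and ND1, CYTB, COX3, ND4, ND5 and ND6 overlap.

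Nuclear genes of mitochondrial gene expression were compared in the same fits, and none of them was called without the block. Of 8 measured genes for the upkeep of mitochondrial DNA and for making and handling its RNA, 1 was called lower and 0 higher in the blocked fit. The list median was -0.13. That gene was hmg-5, the worm homologue of the mitochondrial DNA packaging factor TFAM, at 35.2, 59.1 and 39.5 CPM in double mutants, against 53.8, 72.7 and 51.8 CPM in single mutants. It fell by 0.45 ± 0.090 with an edgeR adjusted p of 0.0394 in the blocked fit, and 0.433 without the block, and the groups overlapped. polg-1, the mitochondrial DNA polymerase, had a log2 fold change of 0.38 with an edgeR adjusted p of 0.0750, and twnk-1, the homologue of the Twinkle helicase, one of 0.63 with an adjusted p of 0.0763. rpom-1, the mitochondrial RNA polymerase, had a log2 fold change of 0.0037 ± 0.096. These last 3 genes were named after their values were seen.

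The translation machinery gave no call in either edgeR fit. Of 65 mitochondrial ribosomal protein genes 0 passed, with a list median of -0.10 in the blocked fit. The 3 with the lowest p were mrpl-1 at -0.40 (edgeR adjusted p of 0.0525), mrps-22 at 0.32 (0.0774) and mrpl-51 at -0.40 (0.0804). Of 11 genes for mitochondrial tRNA synthetases 0 passed, with a median of -0.12, and the lowest p values were those of rars-2 at -0.45 (edgeR adjusted p of 0.0571), lars-2 at -0.22 (0.223) and dars-2 at -0.30 (0.280). Of 3 translation factors 0 passed, gfm-1 at 0.14 (edgeR adjusted p of 0.306), tsfm-1 at -0.11 (0.544) and tufm-1 at 0.074 (0.617). Without the block, 51 of the 65 ribosomal protein genes, 10 of the 11 synthetase genes and 1 of the 3 factors lay below 0. The median of all genes in that fit was -0.016. In the blocked fit the medians of these lists lay nearer to the -0.019 of all genes than that of the mitochondrial members did.

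Several other measures, though not all of those below, moved with genotype beside the mitochondrial counts, and their part in the result was not tested. The 19 rows of nuclear rRNA took 2.71%, 1.34% and 1.19% of the library total in double mutants, against 0.747%, 0.769% and 1.09% in single mutants, higher without overlap where the mitochondrial rRNAs were lower. Set against nuclear counts, nuclear rRNA included, in place of the library total, the 36 rows differed by -0.89 on the log2 scale. This measure follows from the same shares and could only widen their difference, so it is no separate check. Markers of differentiated muscle and pharynx, 7 of 7 measured, summed to 2680 to 4923 CPM in double mutants and 1872 to 2645 CPM in single mutants, without overlap. In the blocked fit 5 of the 7 were called higher, where 2.57% of all genes were, and 0 of the 7 without the block. Early embryo markers, 9 of 10 measured, summed to 96.7 to 210 CPM in double mutants and 125 to 262 CPM in single mutants. The groups overlapped, each number pair was lower in the double mutant, and med-2 was at 0 in at least 1 library. Of these vet-6 alone was called lower in the blocked fit, where 1.45% of all genes were, with an edgeR adjusted p of 0.0313, and 0.599 without the block. Adult markers, 6 of 6 measured, summed to 1.64 to 3.07 CPM in double mutants and 0.349 to 0.753 CPM in single mutants, with col-19, vit-2 and vit-4 at 0 in at least 1 library. Sperm markers, 5 of 5 measured, summed to 1.28 to 1.66 CPM in double mutants and 1.04 to 1.96 CPM in single mutants, with spe-11 and spe-42 at 0 in at least 1 library. The sperm sums overlapped, with means of 1.41 CPM in double mutants and 1.39 CPM in single mutants.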

How the data were processed

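The authors deposited whole-number read counts per gene in 1 table, with a column per library that was assigned through its sample's description. The submitters' processing notes list HISAT2 2.0.5, StringTie and the build WBcel235. Library preparation kept the strand, per the labels' protocols. Which program counted the reads, and how it treated strand, overlapping genes and reads with several matches, was not given in the sources used here. Several neighbouring mitochondrial genes overlap, by 1 to 28 bases, and how reads there were assigned is unknown. Positions, lengths and biotypes came from Ensembl release 115 and the symbols of the 12 protein-coding genes from RefSeq by position. CPM was computed on the library total.

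The main test was edgeR 4.0.16 under R 4.3.3 on all genes passing filterByExpr (TMM, robust quasi-likelihood, genotype only, Benjamini-Hochberg adjustment, threshold 0.05). The SE of an edgeR log2 fold change was derived from the test, as its absolute value over the square root of the F statistic. DESeq2 1.42.0, a replicate block, other scalings, no filter and left-out libraries were alternatives. Scaling to 10 mRNAs, and the alternatives run with the block, were added after seeing the data. Each genotype has biological replicates 1 to 3, per the labels, which do not say what a number shares. Deviations from the genotype means correlated at 0.199, 0.169 and 0.320 within numbers 1, 2 and 3, and at -0.239 to 0.0587 across numbers. Deviations cancel within a genotype, so positive values within numbers force negative ones across numbers on average. The values across numbers are thus no separate evidence of pairing. Each pair passed 0.1, which was the rule for treating libraries as paired, and blocked values stand beside the calls they change. As a check for a duplicated library, the counts of replicates were compared (chi-square per degree of freedom 98.0 to 190.3), and none was treated as one.

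The members, lists and thresholds were chosen with earlier results of these data known. All protein-coding and rRNA members are named, with the 4 tRNA genes of highest mean count, any called, and per nuclear list the genes called or, with none called, the 3 of lowest p.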

Additional observations from a re-analysis of the deposited data

How the results depend on the processing

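The count of mitochondrial genes called lower was 0 without the replicate block, 5 with the replicate block, 3 with DESeq2 and 9 with DESeq2 and the block. It was 0 under the other scalings, without the filter and with each library left out, and 0 mitochondrial genes were called higher in any fit without the block. Around the blocked 5, it was 5 with RLE factors, 5 with scaling from nuclear genes, 7 with library totals, 9 with DESeq2, 3 with scaling to 10 mitochondrial mRNAs, 0 with scaling to 12 and 0 without the filter. Leaving out a pair gave 0 to 7. The cause of these moves was not tested.

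The summed level differed by -0.82 (log2) and by -0.48 without the rRNAs, -0.83 without COX1 and COX2, and -0.43 without all 4. Left-out libraries gave -0.996 to -0.65. The ratio of rRNA to 10 mRNAs differed by -0.43, and by -0.49 to -0.31 with a library left out. Scaling to 12 or 10 mitochondrial mRNAs reversed MTCE.11 (ND1) to 0.11 and 0.016, MTCE.21 (CYTB) to 0.24 and 0.11, MTCE.26 (COX1) to 0.075 and 0.13, and MTCE.25 (ND4) to 0.081 with 12. ND1, CYTB and ND4 are part of both sums, and COX1 is part of the 12. Such a value gives the change of a gene relative to a set that includes it. The 12 also hold the low COX1 and COX2 values. Left-out libraries gave -0.089 to 1.31 for MTCE.4 (ND4L), -0.24 to 0.44 for MTCE.12 (ATP6), -0.85 to 0.32 for MTCE.26, -1.43 to -0.32 for MTCE.31 (COX2), -0.73 to -0.11 for MTCE.23 (COX3) and -1.88 to 0.48 for MTCE.34 (ND3). Of the settings for single genes, 209 kept direction and call, 17 gained and 20 lost the call and 14 reversed.

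ND4L, ND3 and the tRNA genes had at most 97 counts in any library, which limits the precision of their fold changes.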

Other observations

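The tRNA genes on either side of CYTB, MTCE.20 and MTCE.22, had identical counts in all 6 libraries, 1, 1 and 2 in double mutants and 1, 3 and 3 in single mutants, the only such pair among the 36 rows with any counts. MTCE.24, which lies between COX3 and ND4 and was the highest tRNA row, was also the tRNA row that varied least among those tested, by 1.76-fold between its lowest and highest CPM. Double mutant replicate 2 held 4 nuclear genes over 20-fold below the other 5 libraries, acdh-1, acdh-2, asp-13 and pmp-5.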
